A study of Rattus norvegicus with 24 samples.

Results

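The 92 potassium channel genes described here are the genes of the rat annotation whose symbol begins with Kcn followed by another letter. They include the pore-forming subunits and the auxiliary and interacting proteins named with them, and they are 92 of the 32883 genes in the deposited tables. RNA was sequenced from primary striatal neurons of neonatal rats after 7 days in vitro. The neurons received the D1 dopamine receptor agonist SKF, a bromodomain inhibitor, both, or DMSO, the vehicle. Experiment 1 had DMSO, JQ1, SKF, and SKF with JQ1 for 60 min, experiment 2 had DMSO, iBD2, SKF, and SKF with iBD2 for 60 min, and experiment 3 repeated the groups of experiment 1 for 24 h. Each of the 12 groups had 2 libraries, except SKF with iBD2, of which 1 library was analysed. The labels state no strain and no doses. JQ1 binds the bromodomains of the BET proteins, which read acetylated histones, and iBD2 is a bromodomain inhibitor known here only by that code. Groups given a single agent also received DMSO in place of the other. Whether libraries of one group stem from separate cultures is not stated, and p-values then measure only the spread between these libraries.

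Potassium channels carry the outward current that sets the resting potential of a neuron, ends its action potentials and spaces its firing. Voltage-gated channels are tetramers of Kv pore subunits, some of which also take up modifier subunits that form no channel alone. Inward rectifiers and two-pore leak channels act around the resting potential, and calcium-activated channels shape the potential that follows a spike. In striatal projection neurons, inward rectifiers and A-type (rapidly inactivating) Kv channels are known for holding the cell at a negative potential until strong input arrives, and dopamine receptors are known to modulate these currents.

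Across libraries the aligned bases ranged from 4.36 to 14.9 gigabases. The cultures carried the markers of striatal projection neurons, with a mean in experiment 1 vehicle of 377.2 FPKM for Gad1, which makes GABA, and 73.8 for Ppp1r1b, the dopamine signalling protein DARPP-32 of these cells. The treatments were visible in their usual reporter genes: at 60 min Fos rose by 2.12 and Nr4a2 by 2.98 with SKF, and with JQ1 Hexim1 rose by 1.22 while Myc fell by 1.29 (log2 fold changes, limma, all with an adjusted p under 0.05). Hexim1 also rose with iBD2, by 0.52. Astrocyte markers (7 genes) summed to 118 to 132 FPKM in experiment 2, against 321 to 430 in experiment 1 and 320 to 471 in experiment 3. With vehicle, microglial markers summed to 18.25 to 22.27 FPKM in experiment 2. They summed to 32.1 to 35.6 in experiment 1 and 30.4 to 36.1 in experiment 3. Oligodendrocyte lineage markers summed to 24.6 to 26.3 in experiment 2, against 41.1 to 42.2 and 37.7 to 43.2. Striatal projection neuron markers went the other way, at 1338 to 1376 against 1161 to 1188 and 1086 to 1223. Ppp1r1b averaged 134.2 FPKM in experiment 2 vehicle. RNA came from whole cultures, so fewer cells of a type and less RNA per cell cannot be told apart.

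Of the 92 genes, 67 reached the level needed for testing, an FPKM (sequenced fragments relative to transcript length and to the size of the library) of at least 0.5 in at least 2 libraries. Of these, 56 were at or above 0.5 FPKM in all 23 libraries and 11 were lower in some. The highest value of the other 25 in any library was 0.334 FPKM. By role, testing covered 13 of 15 Kv pore genes, 7 of 10 modifier genes, 11 of 13 genes of the Kv7, EAG and ERG families, 10 of 15 inward rectifiers, 8 of 14 two-pore channels, 6 of 8 calcium- or sodium-activated channels and 12 of 17 auxiliary and interacting genes.

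Of the members, Kcnd3, an A-type Kv4 pore subunit, had the highest level in the 6 vehicle libraries, at 26.9 ± 1.62 FPKM (SD, n = 6, range 25.4 to 29.0). Kcnd2, another Kv4 gene, has no entry under that symbol, so its level is not known here. Kcnq3, a subunit of the M-current channel that damps repetitive firing, stood at 21.6 ± 2.50 FPKM (range 18.7 to 24.6), and Kcnma1, the pore of the BK channel that opens with both calcium and voltage, at 21.4 ± 3.15 (range 18.6 to 25.8). The range of Kcnd3 lay above that of Kcnq3. Both ranges overlapped that of Kcnma1, so the place of Kcnma1 among them is not resolved beyond the spread between libraries. In all, 21 members averaged at least 10 FPKM, and the median of the members tested was 5.36 FPKM, against 7.36 for all genes tested.

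Inward rectifiers of the classical type were led by Kcnj4 at 19.3 ± 5.38 FPKM, with Kcnj3, a subunit of the G-protein-gated channel, at 11.9 ± 2.42. Among two-pore channels Kcnk9 averaged 17.5 FPKM with an SD of 13.3. Its vehicle mean was 34.5 FPKM in experiment 2, 9.54 in experiment 1 and 8.41 in experiment 3. Kcnip1, which binds Kv4 channels and is counted with the auxiliary genes, went the other way, at 11.2 FPKM in experiment 2 against 19.5 in experiment 1 and 19.4 in experiment 3. The vehicle libraries of experiment 2 did not overlap those of the other experiments for either gene. The marker sums given above differed between the same experiments, and their part in these levels was not tested. Kcnk9 lies within the annotated span of Trappc9 on the same strand, so reads there may be shared. Kcnip1 overlaps Kcnmb1 on the opposite strand, and the labels do not state whether counting used strand.

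**Figure D1:**
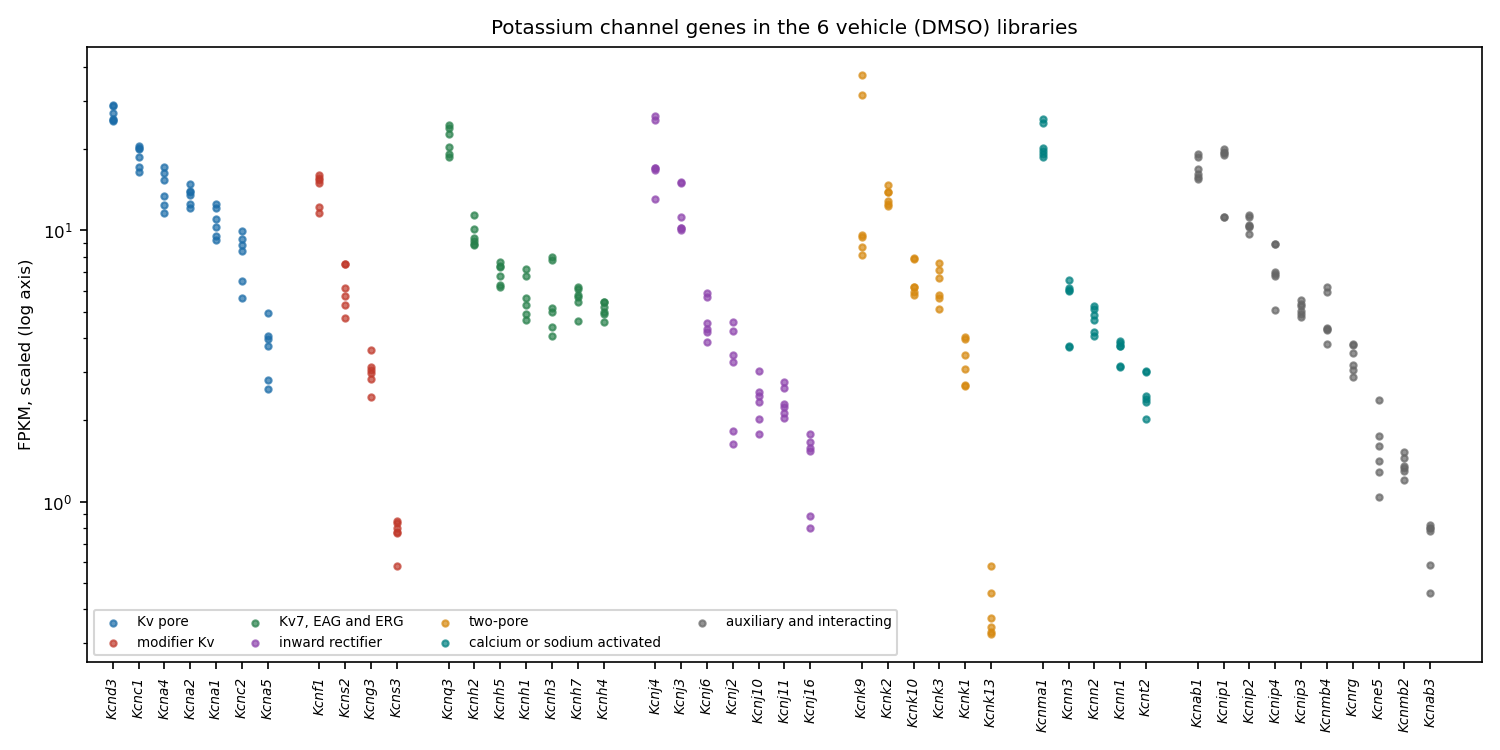
Level of 46 tested potassium channel genes in the 6 vehicle libraries, as scaled FPKM on a log axis, grouped by role; each point is 1 library. Kcnd3 has the highest mean, and Kcnk9 separates into 2 high and 4 low libraries.

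SKF for 60 min moved few of these genes. Across experiments 1 and 2, Kcnf1, Kcnk1 and Kcns2 rose and Kcnj2 fell, 4 of 67 members, while 3.98% of all genes tested were called (3.18% higher and 0.8% lower). Kcnf1 and Kcns2 are modifier subunits that join Kv2 channels, Kcnk1 is a weakly conducting two-pore channel, and Kcnj2 is a strong inward rectifier that stabilises the resting potential. The median member did not shift, at 0.00 on the log2 scale, against 0.01 for all genes. No Kv pore, Kv7, EAG, ERG, calcium- or sodium-activated or auxiliary gene was called.

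Kcnf1 stood at 15.4 and 15.6 FPKM in the vehicle libraries of experiment 1 and at 17.0 and 22.6 with SKF. In experiment 2 it stood at 16.0 and 14.9 with vehicle and at 23.2 and 22.8 with SKF. All SKF libraries lay above all vehicle libraries of their experiment, and the mean log2 fold change was 0.44 ± 0.07 (SE, adjusted p = 0.00031). In the fit over all 23 libraries, the effect was 0.33 in experiment 1 (adjusted p = 0.13) and 0.56 in experiment 2 (adjusted p = 0.0016). By experiment the gene was thus called in experiment 2 only (1.71% and 2.37% of all genes called). With experiment 1 fitted alone the adjusted p was 0.39.

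Kcnj2 read 3.47 and 3.26 FPKM with vehicle and 1.92 and 2.41 with SKF in experiment 1, and 4.58 and 4.26 against 3.87 and 3.29 in experiment 2. Its SKF libraries were below the vehicle libraries in both experiments, with a log2 fold change of -0.41 ± 0.09 (adjusted p = 0.0083). By experiment, in the same fit over all libraries, it was -0.54 (adjusted p = 0.024) in the first and -0.27 (adjusted p = 0.39) in the second. With experiment 2 fitted alone the adjusted p was 0.25. Without SKF replicate 2 of experiment 2 the call ended, at -0.35 and an adjusted p of 0.061.

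Kcns2 rose by 0.28 ± 0.07 (adjusted p = 0.021) and Kcnk1 by 0.32 ± 0.08 (adjusted p = 0.022) on the log2 scale. Kcns2 went from 5.75 and 6.16 to 7.13 and 8.31 FPKM in experiment 1, and from 7.54 and 7.50 to 8.62 and 8.997 in experiment 2. Kcnk1 went from 3.08 and 2.67 to 3.58 and 4.19, and from 3.96 and 4.06 to 5.06 and 4.74. Groups did not overlap for either gene, yet the calls were thin. Neither gene was called in one experiment taken by itself, and both calls ended without SKF replicate 6 of experiment 1 (Kcns2 0.23, adjusted p = 0.13; Kcnk1 0.27, adjusted p = 0.12), without either vehicle replicate of experiment 2 (Kcns2 0.28 in both cases, adjusted p = 0.059 and 0.072; Kcnk1 0.31 and 0.33, adjusted p = 0.069 and 0.060) and without 2 further libraries each. These were vehicle replicate 5 of experiment 1 (0.26, adjusted p = 0.081) and SKF replicate 2 of experiment 2 (0.27, adjusted p = 0.088) for Kcns2, and vehicle replicate 6 of experiment 1 (0.27, adjusted p = 0.098) and SKF replicate 1 of experiment 2 (0.30, adjusted p = 0.094) for Kcnk1.

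**Figure D2:**
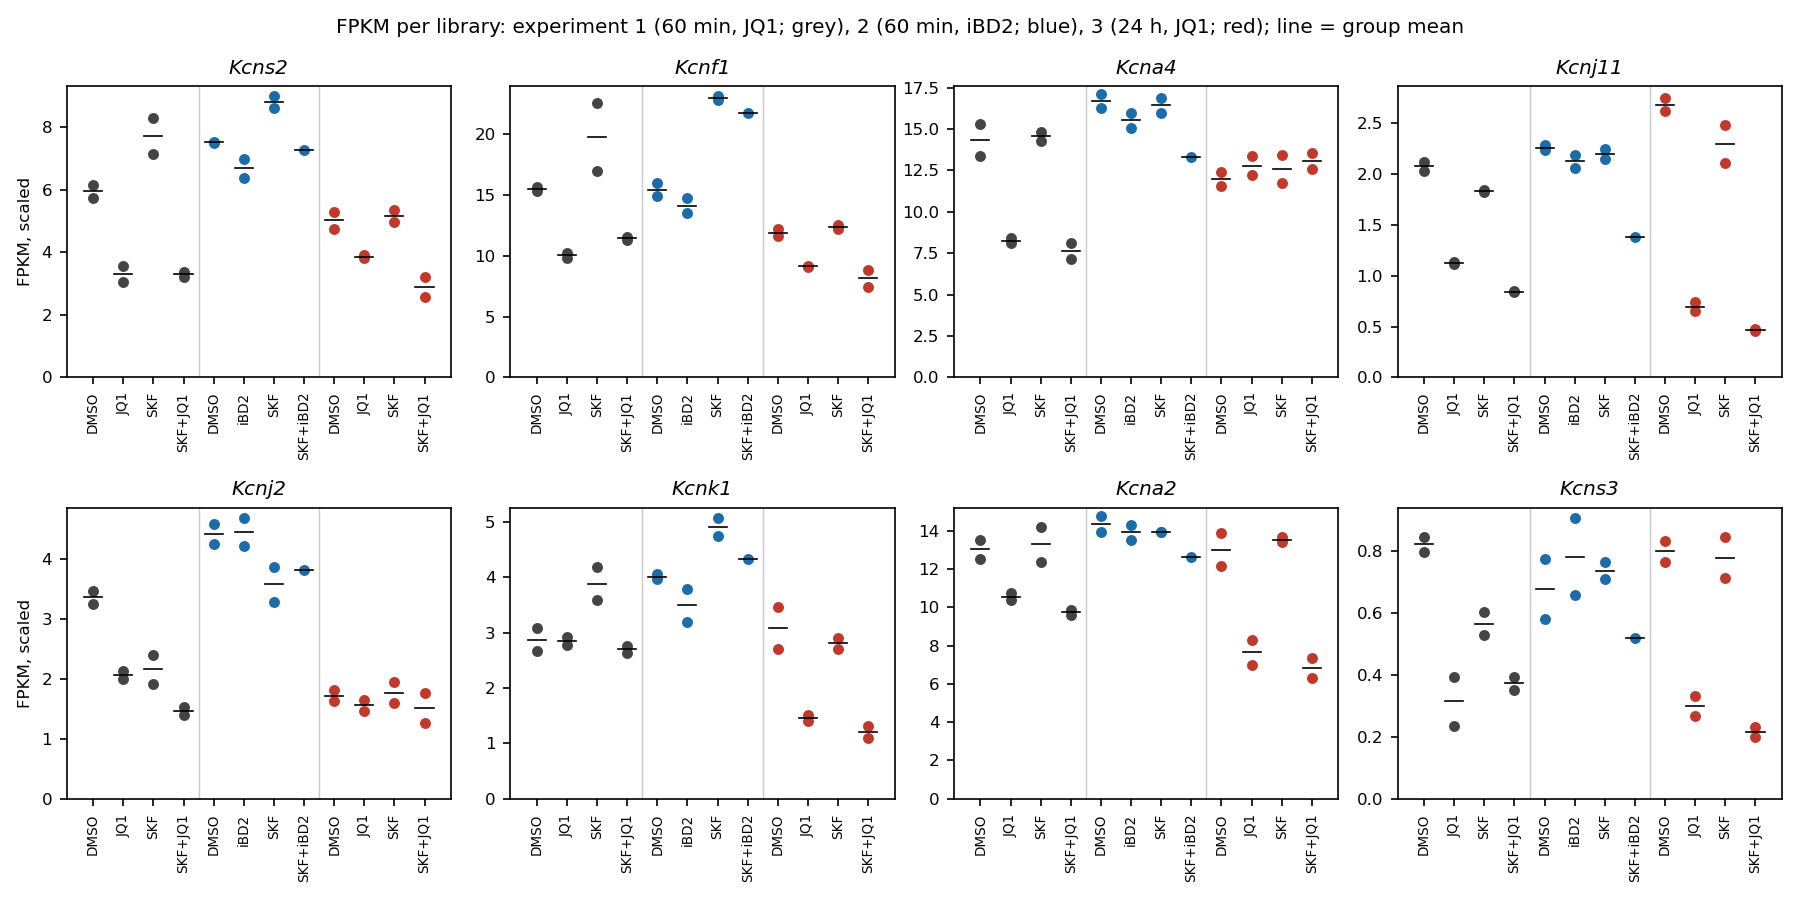
Scaled FPKM of 8 potassium channel genes in every library, by treatment; grey is experiment 1, blue experiment 2 and red experiment 3, and the line is the group mean. Kcns2, Kcnf1, Kcna4 and Kcnj11 are low in the JQ1 groups of experiment 1, and Kcna4 and Kcnj2 show no such gap at 24 h.

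JQ1 for 60 min lowered 7 members and raised none, and JQ1 in the presence of SKF (SKF with JQ1 against SKF) also lowered 7 and raised none. Kcns2, Kcna4, Kcnj11, Kcnf1 and Kcnj2 fell in both comparisons, which share no library. Kcna4 is an A-type Kv1 pore subunit and Kcnj11 is the pore of the ATP-sensitive channel that couples metabolism to excitability. Of all genes tested, 4.34% were called with JQ1 and 6.49% with JQ1 in the presence of SKF. The corresponding shares for falls alone were 2.52% and 3.86%. The median of the members was -0.01 with JQ1 and -0.07 with JQ1 in the presence of SKF, against 0.01 and 0.00 for all genes. Members below 0 made up 55.2% with JQ1 and 73.1% with JQ1 in the presence of SKF, against 47% and 49.3% of all genes, and 14 and 17 members had an unadjusted p under 0.05.

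Kcns2 stood at 5.75 and 6.16 FPKM with vehicle and 3.57 and 3.05 with JQ1, and at 7.13 and 8.31 with SKF and 3.21 and 3.38 with SKF and JQ1. Every library with JQ1 was below every library without it, and the 4 libraries with JQ1 lay between 3.05 and 3.57 FPKM whether or not SKF was present. The log2 fold change was -0.76 ± 0.09 without SKF (adjusted p = 5.2e-05) and -1.11 ± 0.09 with it (adjusted p = 5.6e-07). The difference between them, which is also the change in the SKF effect under JQ1, was -0.35 (95% confidence interval -0.63 to -0.06), with an unadjusted p of 0.019 and an adjusted p of 1.

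Kcna4 stood at 13.4 and 15.3 FPKM with vehicle, 8.09 and 8.41 with JQ1, 14.3 and 14.9 with SKF, and 7.16 and 8.10 with both. The groups with and without JQ1 did not overlap, and SKF by itself left Kcna4 at 0.00 on the log2 scale (95% confidence interval -0.12 to 0.12). Its log2 fold changes with JQ1 were -0.76 ± 0.08 (adjusted p = 6.0e-06) and, with SKF present, -0.89 ± 0.08 (adjusted p = 7.9e-07). Kcnj11, at a lower level, went from 2.12 and 2.03 to 1.12 and 1.13 FPKM, and from 1.85 and 1.82 to 0.837 and 0.846 with SKF present. These are changes of -0.67 ± 0.08 (adjusted p = 4.0e-05) and -0.80 ± 0.08 (adjusted p = 4.1e-06), again without overlap.

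Kcnf1, which SKF raised, read 10.2 and 9.86 FPKM with JQ1 and 11.6 and 11.3 with both agents. All 4 were below the vehicle libraries, and the log2 fold changes were -0.60 ± 0.09 (adjusted p = 0.00065) and -0.75 ± 0.09 (adjusted p = 5.1e-05). Kcnj2, which SKF lowered, read 2.13 and 1.997 FPKM with JQ1 and 1.53 and 1.41 with both agents, the lowest of the 4 groups. Its log2 fold changes were -0.59 ± 0.12 (adjusted p = 0.0067) and -0.43 ± 0.12 (adjusted p = 0.041). The call with JQ1 ended without vehicle replicate 5 (-0.55, adjusted p = 0.053) and without JQ1 replicate 6 (-0.55, adjusted p = 0.074). With SKF present, it ended without SKF replicate 6 (-0.30, adjusted p = 0.34), either SKF with JQ1 replicate (-0.48 and -0.39, adjusted p = 0.13 and 0.21), or any of 4 libraries outside the comparison (-0.43 in each case, adjusted p = 0.051 to 0.052), which enter the fit only through the pooled spread.

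The other falls appeared in 1 of the 2 comparisons each. Kcns3, a modifier subunit near the detection floor, read 0.846 and 0.799 FPKM with vehicle and 0.394 and 0.236 with JQ1 (log2 fold change -0.71 ± 0.12, adjusted p = 0.0016). With SKF present its change was -0.29 (adjusted p = 0.22). Kcnk3, an acid-sensitive leak channel, fell by 0.29 (adjusted p = 0.026), a call that ended without vehicle replicate 6 (-0.18, adjusted p = 0.36), JQ1 replicate 5 (-0.28, adjusted p = 0.18) and JQ1 replicate 6 (-0.30, adjusted p = 0.12). Kcna2, a Kv1 delayed rectifier, went from 12.4 and 14.2 FPKM with SKF to 9.58 and 9.87 with both agents, a change of -0.43 ± 0.09 (adjusted p = 0.0040). That call ended without SKF replicate 6 (-0.33, adjusted p = 0.078) or SKF with JQ1 replicate 5 (-0.41, adjusted p = 0.053), and without SKF the change was -0.29 (adjusted p = 0.073).

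Kcnk1 gave a different picture. JQ1 without SKF left it at -0.01 (95% confidence interval -0.24 to 0.22), with libraries at 2.77 and 2.92 FPKM against 3.08 and 2.67 with vehicle. With SKF present it fell from 3.58 and 4.19 to 2.76 and 2.63 FPKM (-0.45 ± 0.11, adjusted p = 0.014), a level inside the vehicle range or just below it. The difference between the changes was -0.44 (95% confidence interval -0.76 to -0.12, unadjusted p = 0.010, adjusted p = 1). The call with SKF ended without SKF replicate 6 (-0.35, adjusted p = 0.17) or either SKF with JQ1 replicate (-0.48 and -0.43, adjusted p = 0.072 and 0.11). Over all members, the test of whether JQ1 altered the SKF effect at 60 min called 0 genes with limma, with 4 members at an unadjusted p under 0.05 and 0% of all genes called.

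The 9 genes that fell with JQ1 at 60 min in either comparison were short and simple in the annotation. Their median span in Rnor_6.0 was 3.13 kb (range 1.68 to 55.8), against 41.8 kb for all 67 members tested and 19.6 kb for all genes tested, and 8 of the 9 have at most 3 exons. For comparison, 31 of the 67 members and 2962 of all 13999 genes have at most 3 exons. Kcna4 (chr3:98297554-98300680, + strand), Kcnf1 (chr6:42471066-42473738, - strand), Kcnj11 (chr1:102103094-102106127, - strand) and Kcnj2 (chr10:99437436-99439114, + strand) are annotated as a single exon each, and Kcns2 (chr7:73588163-73590385, + strand) has 2. Across the 67 members the Spearman correlation of span with the log2 fold change was 0.52 for JQ1 at 60 min, 0.26 with SKF present, 0.40 for iBD2, 0.22 for iBD2 with SKF present and 0.26 for SKF by itself, against -0.04 over all 13999 genes for JQ1. These correlations run across genes, which are not independent replicates, within the same libraries. The median span of the 38 members that fell with JQ1 at 24 h but not at 60 min was 66.5 kb. By definition that set leaves out the 9 mostly short genes. At 24 h the Spearman correlation with span across the 67 members was -0.05 with JQ1 and -0.03 with SKF present. Over all genes it was -0.09 and -0.07.

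**Figure D3:**
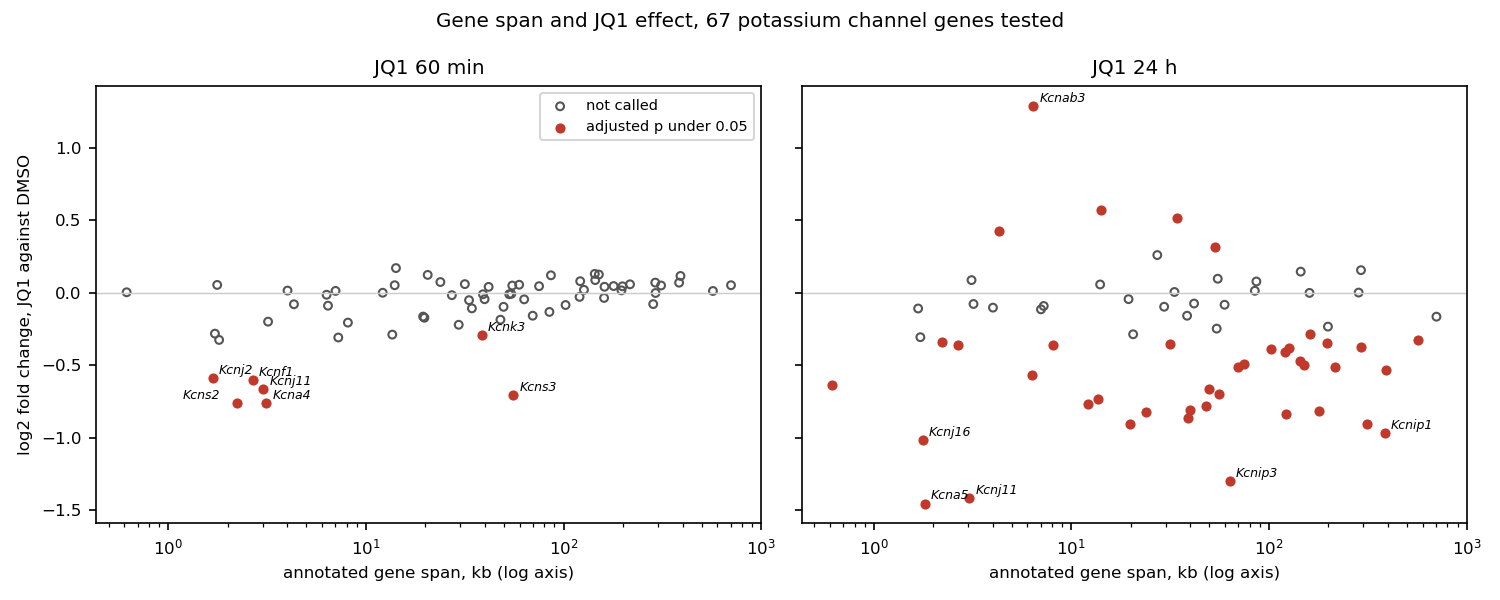
Log2 fold change with JQ1 against annotated gene span in kb (log axis) for the 67 members tested, at 60 min (left) and 24 h (right); filled points have an adjusted p under 0.05. At 60 min 5 of the 7 called genes are under 4 kb, and at 24 h called genes lie along the whole range of spans.

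For 3 of the 5 genes that fell with JQ1 in both 60 min comparisons, RefSeq (build GRCr8) gives a promoter window, shown here for that shared fall. With SKF by itself at 60 min Kcnf1 rose, Kcnj2 fell and Kcna4 was not called. Each is the 250 bases before the annotated start, read 5′ to 3′ on the strand of the gene, with every CG dinucleotide in capitals. Kcna4 lies at chr3:114215086-114215335 (+ strand), Kcnf1 at chr6:45693707-45693956 (- strand) and Kcnj2 at chr10:96559975-96560224 (+ strand) in that build.
Kcna4: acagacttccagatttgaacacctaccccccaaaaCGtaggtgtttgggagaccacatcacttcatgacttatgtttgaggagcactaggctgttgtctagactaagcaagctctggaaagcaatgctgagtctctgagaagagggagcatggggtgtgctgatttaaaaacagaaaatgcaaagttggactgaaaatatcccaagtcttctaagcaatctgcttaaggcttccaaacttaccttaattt
Kcnf1: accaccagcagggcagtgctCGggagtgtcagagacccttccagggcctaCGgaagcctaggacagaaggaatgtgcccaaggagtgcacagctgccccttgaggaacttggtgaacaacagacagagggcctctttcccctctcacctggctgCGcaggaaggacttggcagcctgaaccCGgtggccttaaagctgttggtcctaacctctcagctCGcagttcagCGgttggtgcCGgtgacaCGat
Kcnj2: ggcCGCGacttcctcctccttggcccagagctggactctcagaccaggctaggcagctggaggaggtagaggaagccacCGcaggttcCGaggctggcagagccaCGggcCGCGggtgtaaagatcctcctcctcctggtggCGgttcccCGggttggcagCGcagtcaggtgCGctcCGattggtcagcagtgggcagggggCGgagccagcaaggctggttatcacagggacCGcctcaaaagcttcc
The windows hold 1, 8 and 14 CG dinucleotides in that order, and any link of CG content to the falls was not tested. The median was 14 over the 43 tested members with a window and 5 over all 33469 windows. None of the 3 windows holds the cAMP response element TGACGTCA (1.59% of all windows do), its core TGACG (18.2%), the AP-1 letters TGACTCA (4.05%) or TATAAA (12.9%), searched on both strands with the core counted within the full element. Among the 48 windows of members tested, none holds the full element, the AP-1 letters or TATAAA, and 14.6% hold the core. The absence is therefore not particular to these 3 genes. No match says only that these letters are not in these windows.

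iBD2 for 60 min gave 0 calls among the 67 members with limma, with 5 at an unadjusted p under 0.05. Over all genes 0.186% were called. Kcns2 read 7.00 and 6.37 FPKM with iBD2 against 7.54 and 7.50 with vehicle (-0.16, 95% confidence interval -0.36 to 0.04). Kcna4 read 16.0 and 15.1 against 16.3 and 17.1 (-0.10, 95% confidence interval -0.27 to 0.06). Both genes were lower in each iBD2 library than in each vehicle library, by amounts that did not pass the test. With SKF present, where 1 library stands for SKF with iBD2 and is assumed to vary like the others, 0 members were called (0.0214% of all genes), with 5 at an unadjusted p under 0.05. The nearest was Kcnj11, at 1.38 FPKM against 2.25 and 2.15 with SKF (-0.52 ± 0.10, adjusted p = 0.12).

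The effects of JQ1 and iBD2 were compared across experiments, each against the vehicle of its own experiment. Both are bromodomain inhibitors, but no doses are stated and they may differ. Each was given in 1 experiment only, so agent and experiment, including the marker and depth differences given above, cannot be told apart. JQ1 lowered 4 members further than iBD2 and raised none, with 0.921% of all genes called (0.4% lower). The differences were -0.66 ± 0.11 for Kcna4 (adjusted p = 0.0052), -0.59 ± 0.11 for Kcnj11 (adjusted p = 0.015), -0.83 ± 0.17 for Kcns3 (adjusted p = 0.027) and -0.60 ± 0.13 for Kcns2 (adjusted p = 0.040). For Kcnj2 the difference was -0.60 (95% confidence interval -0.96 to -0.24, adjusted p = 0.15) and for Kcnf1 -0.48 (95% confidence interval -0.76 to -0.20, adjusted p = 0.13). The call for Kcna4 held whichever library was left out. Those for Kcnj11, Kcns3 and Kcns2 each ended in 5 or more omissions, with values of -0.56 to -0.61, -0.69 to -0.85 and -0.50 to -0.67.

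JQ1 for 24 h altered most of the family, in cultures where most genes were altered. Without SKF 36 members fell and 5 rose, and with SKF present 41 fell and 5 rose, of 67. Called members made up 61.2% without SKF and 68.7% with it, against 56.3% and 56.5% of all genes. The share was thus nearer the background without SKF than with it. Direction differed more: falls made up 28.3% of all genes tested without SKF and 28.2% with it, and rises 28% and 28.3%. The median log2 fold change of the members was -0.34 without SKF and -0.38 with it, against 0.01 for all genes in both. Members below -0.5 on the log2 scale made up 32.8% without SKF, against 13.7% of all genes. The comparisons share no library, and 32 falls were common to both, which is 88.9% of the first list and 78.0% of the second.

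Markers of other cell types moved at the same time. All 7 microglial markers fell with JQ1 at 24 h, and their sum was 30.4 to 36.1 FPKM with vehicle, 3.78 to 5.62 with JQ1, 12.8 to 17.5 with SKF and 0.422 to 1.21 with both. Itgam was at 0 in the JQ1 group and Aif1 in the group with both agents. Astrocyte markers summed to 373 to 450 FPKM with vehicle and 320 to 376 with JQ1, with 3 of 7 called lower. Neuronal markers summed to 1518 to 1710 with vehicle and 1408 to 1481 with JQ1, with 2 of 5 called lower, and the 11 striatal projection neuron markers to 1086 to 1223 and 1135 to 1248, with 2 called lower and 1 higher. Among the latter, Drd1, the receptor that SKF acts on, averaged 13.4 FPKM with vehicle and 6.16 with JQ1. Drd1 was also lower with JQ1 at 60 min in experiment 1. There it averaged 11.2 FPKM with vehicle, 5.32 with JQ1, 16.0 with SKF and 5.085 with both agents. Oligodendrocyte lineage markers summed to 37.7 to 43.2 FPKM with vehicle and 43.4 to 53.2 with JQ1, with 3 of 6 tested called lower and 2 higher. With SKF present, the same lists gave 1 lower and 2 higher for astrocytes, 2 lower for neurons, 4 lower and 2 higher for striatal projection neurons and 1 lower and 2 higher for the oligodendrocyte lineage. The neuronal sum there was 1563 to 1577 FPKM with SKF and 1286 to 1449 with both agents. The part of these markers in the changes of the channel genes was not tested. Kcnk13, a two-pore channel known from microglia, was at 0.372 and 0.331 FPKM with vehicle and 0.194 and 0.111 with JQ1. It is near the detection floor, reaching 0.5 FPKM in 6 of the 23 libraries. Its vehicle mean was 0.519 FPKM in experiment 2, where the microglial sum was lower, against 0.334 in experiment 1 and 0.352 in experiment 3.

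**Figure D4:**
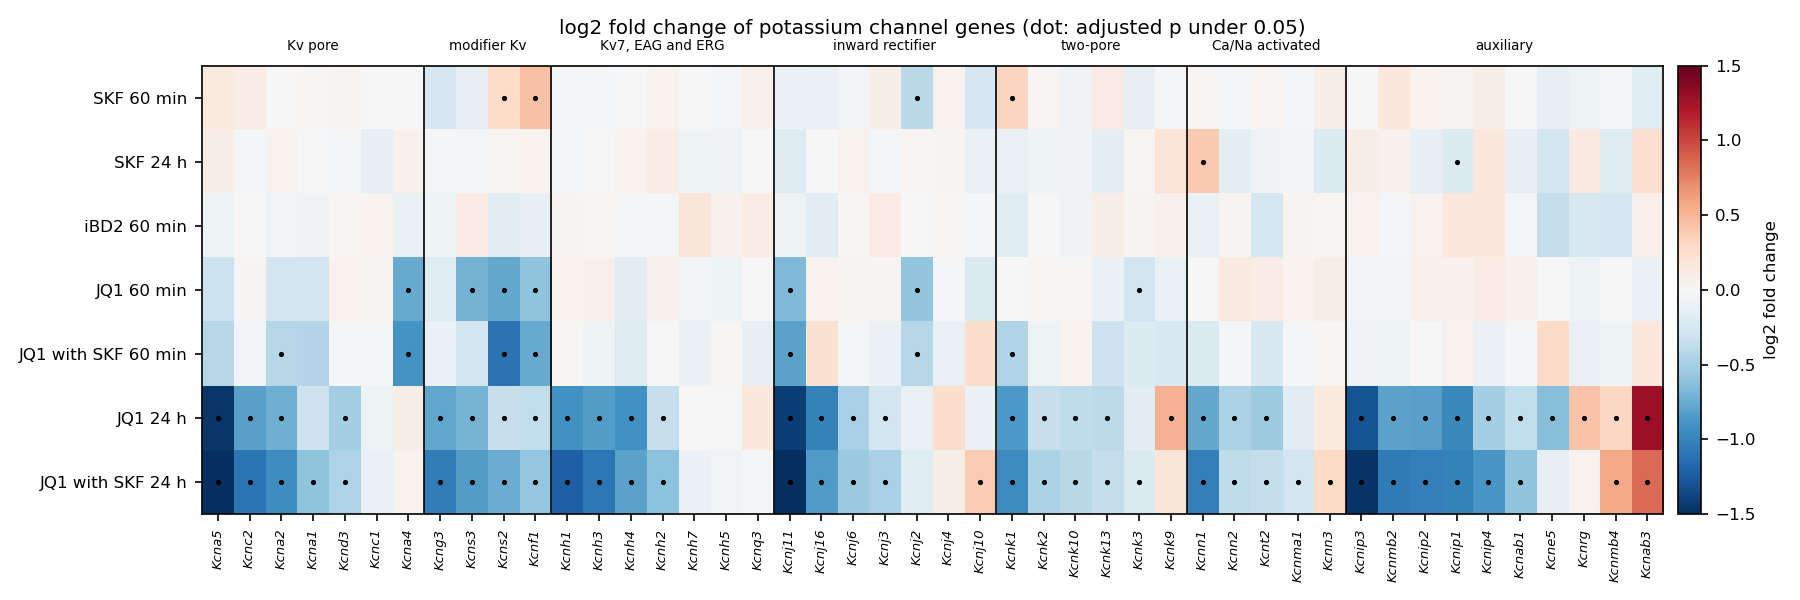
Log2 fold changes of 46 tested members (columns, grouped by role and ordered by the change with JQ1 at 24 h with SKF present) in 7 comparisons (rows); a dot marks an adjusted p under 0.05. The SKF and iBD2 rows are nearly blank, the 60 min JQ1 rows hold 7 falls each, and the 24 h rows are mostly falls.

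Of 13 Kv pore genes, Kcna5, Kcnc2, Kcna2 and Kcnd3 fell without SKF, 1 rose and 8 were not called, where 28.3% of all genes fell. Kcna5, a delayed rectifier of the Kv1 family, had the largest fall of any member on the log2(FPKM + 0.5) scale, from 3.76 and 4.95 FPKM to 1.14 and 1.38 (-1.45 ± 0.13, adjusted p = 1.1e-07). With SKF present it went from 4.70 and 4.63 to 0.764 and 1.07 (-1.87 ± 0.13, adjusted p = 5.4e-09), again the largest on that scale. With a pseudocount of 0.1, which shrinks low genes less, Kcnj11 was lower than Kcna5 without SKF (-1.81 against -1.70). Kcnd3, the most abundant member, went from 25.8 and 27.2 to 17.8 and 19.1 FPKM (-0.51 ± 0.05, adjusted p = 2.1e-07), with no overlap.

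Kcna2 went from 12.1 and 13.9 to 6.98 and 8.30 FPKM (-0.73 ± 0.09, adjusted p = 2.0e-06) and Kcnc2, a Kv3 subunit of fast-spiking cells, from 8.80 and 9.92 to 4.77 and 5.43 (-0.82 ± 0.08, adjusted p = 4.3e-07). Neither gene had overlapping groups. Kcnc1, also of the Kv3 family, was at -0.08 (95% confidence interval -0.22 to 0.07).

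Of the 7 modifier genes 6 fell without SKF and all 7 fell with it. Kcng3, a modifier of Kv2 channels, changed by -0.78 ± 0.14 (adjusted p = 0.00021) and -1.05 ± 0.14 (adjusted p = 1.1e-05), and Kcns3 by -0.70 (adjusted p = 0.00012) and -0.83 (adjusted p = 2.0e-05). With a pseudocount of 0.1 the changes of Kcns3 were -1.17 and -1.47 and those of Kcng3 -0.94 and -1.30. Kcns2 went from 4.75 and 5.30 to 3.90 and 3.82 FPKM (-0.34 ± 0.09, adjusted p = 0.0057) without SKF and from 4.96 and 5.35 to 2.56 and 3.21 (-0.75 ± 0.09, adjusted p = 4.4e-06) with it. The first call ended without vehicle replicate 6 (-0.27, adjusted p = 0.065). The difference between the 2 changes was -0.41 (95% confidence interval -0.69 to -0.12, unadjusted p = 0.0076, adjusted p = 0.69), close to that at 60 min, and it did not pass the test at either time. Kcnf1 fell by 0.36 (adjusted p = 0.0036) and 0.58 (adjusted p = 6.0e-05).

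In the Kv7, EAG and ERG families 6 of 11 genes fell without SKF, while the M-current gene Kcnq3 did not pass the test. Kcnh1, the EAG pore gene, went from 4.92 and 5.31 to 2.22 and 2.79 FPKM (-0.91 ± 0.11, adjusted p = 2.7e-06). Kcnh4, of the related ELK group, went from 5.21 and 5.47 to 2.66 and 2.57 (-0.91 ± 0.08, adjusted p = 8.5e-08). Kcnh3, also of the ELK group, changed by -0.84 ± 0.18 (adjusted p = 0.00074) and Kcnh2, the ERG pore gene, by -0.35 ± 0.06 (adjusted p = 0.00014). Kcnq3 was at 20.3 and 24.6 FPKM with vehicle and 23.5 and 26.5 with JQ1 (0.16, 95% confidence interval -0.03 to 0.34). Kcnh5 and Kcnh7 were at 0.00 each. Kcnh3 shares its span with Spats2 on the same strand.

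Of 10 inward rectifiers, 4 fell without SKF. Kcnj11, already lower at 60 min, went from 2.62 and 2.75 to 0.655 and 0.737 FPKM (-1.41 ± 0.08, adjusted p = 5.0e-10) and with SKF present from 2.12 and 2.48 to 0.460 and 0.477 (-1.53 ± 0.08, adjusted p = 2.1e-10). Kcnj16, a subunit that pairs with Kcnj10 in glia, fell from 1.78 and 1.58 to 0.697 and 0.466 (-1.02 ± 0.13, adjusted p = 4.9e-06), while Kcnj10 was at 3.03 and 2.34 against 2.61 and 2.31 (-0.10, 95% confidence interval -0.41 to 0.22). With SKF present Kcnj10 rose from 2.31 and 2.63 to 3.52 and 3.22 FPKM (0.39, adjusted p = 0.035), a call that ended without SKF replicate 5 (0.31, adjusted p = 0.19) and without either SKF with JQ1 replicate (0.33 and 0.44, adjusted p = 0.15 and 0.058). Of the G-protein-gated subunits, Kcnj6 fell by 0.49 (adjusted p = 0.00026). Kcnj3 fell by 0.28 (adjusted p = 0.018), a call that ended without vehicle replicate 6 (-0.22, adjusted p = 0.13) and without JQ1 replicate 5 (-0.20, adjusted p = 0.17). Kcnj4 did not pass the test, at 13.1 and 16.7 FPKM with vehicle and 16.8 and 18.8 with JQ1 (0.26, 95% confidence interval -0.02 to 0.54).

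Of 8 two-pore genes, 6 fell and Kcnk9 rose without SKF. Kcnk1 went from 2.70 and 3.46 to 1.40 and 1.51 FPKM (-0.86 ± 0.11, adjusted p = 3.9e-06), and Kcnk2, a mechanosensitive leak channel, from 12.3 and 14.7 to 10.6 and 10.4 (-0.35 ± 0.07, adjusted p = 0.00034). Kcnk9 went from 8.14 and 8.68 to 11.0 and 13.6 (0.52 ± 0.14, adjusted p = 0.0056). That call ended without JQ1 replicate 6 (0.37, adjusted p = 0.078), and with SKF present the change was 0.18 (95% confidence interval -0.12 to 0.48).

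Among calcium- and sodium-activated channels, the SK pore gene Kcnn1 went from 3.92 and 3.86 to 2.22 and 1.94 FPKM (-0.77 ± 0.09, adjusted p = 1.3e-06). Kcnn2 fell by 0.47 (adjusted p = 0.00060) and Kcnt2, a sodium-activated channel, by 0.53 (adjusted p = 0.0013). Kcnma1 was at -0.17 (adjusted p = 0.062) without SKF and fell by 0.28 with it (adjusted p = 0.0032), a call that ended without SKF with JQ1 replicate 5 (-0.17, adjusted p = 0.079). Kcnn3 rose by 0.29 with SKF present (adjusted p = 0.011), and that call ended without SKF replicate 6 (0.25, adjusted p = 0.085).

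The 4 Kcnip genes, whose proteins bind Kv4 channels such as that of Kcnd3, all fell in both comparisons. Kcnip1 went from 19.4 in both vehicle libraries to 9.64 and 9.66 FPKM with JQ1 (-0.97 ± 0.05, adjusted p = 1.3e-10), and from 17.5 and 16.0 with SKF to 8.04 and 7.99 with both agents (-1.02 ± 0.05, adjusted p = 6.3e-11). Kcnip3, whose product is also known as a calcium-sensitive repressor of transcription, went from 4.80 and 4.94 to 1.39 and 2.01 (-1.30 ± 0.13, adjusted p = 2.6e-07). Kcnip2 went from 10.5 and 11.4 to 5.38 and 6.66 (-0.82 ± 0.12, adjusted p = 1.6e-05). Kcnip4 fell by 0.50 (adjusted p = 0.011), a call that ended without vehicle replicate 6 (-0.28, adjusted p = 0.18) and without JQ1 replicate 5 (-0.43, adjusted p = 0.074).

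The remaining auxiliary genes moved both ways. Kcnab1 and Kcnab3 encode beta subunits of Kv1 channels, and they moved in opposite directions. Kcnab1 went from 15.5 and 16.8 to 11.6 and 13.2 FPKM (-0.37 ± 0.09, adjusted p = 0.0026). Kcnab3, low with vehicle at 0.461 and 0.582, reached 2.07 and 1.92 with JQ1 (1.29 ± 0.14, adjusted p = 5.9e-07) and, with SKF present, went from 0.662 and 0.744 to 1.71 and 1.63 (0.85 ± 0.14, adjusted p = 4.9e-05).

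The BK beta subunits also parted. Kcnmb2 changed by -0.81 ± 0.11 (adjusted p = 1.1e-05) and Kcnmb4 by 0.31 ± 0.09 (adjusted p = 0.0093) without SKF and by 0.57 ± 0.09 (adjusted p = 6.7e-05) with it. The first Kcnmb4 call ended without vehicle replicate 6 (0.23, adjusted p = 0.10) and without JQ1 replicate 6 (0.21, adjusted p = 0.13). Kcnrg, which hinders Kv assembly, rose by 0.42 without SKF (adjusted p = 0.0087), a call that ended without vehicle replicate 6 (0.29, adjusted p = 0.12) and without JQ1 replicate 5 (0.39, adjusted p = 0.055). With SKF present it was at 0.06.

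**Figure D5:**
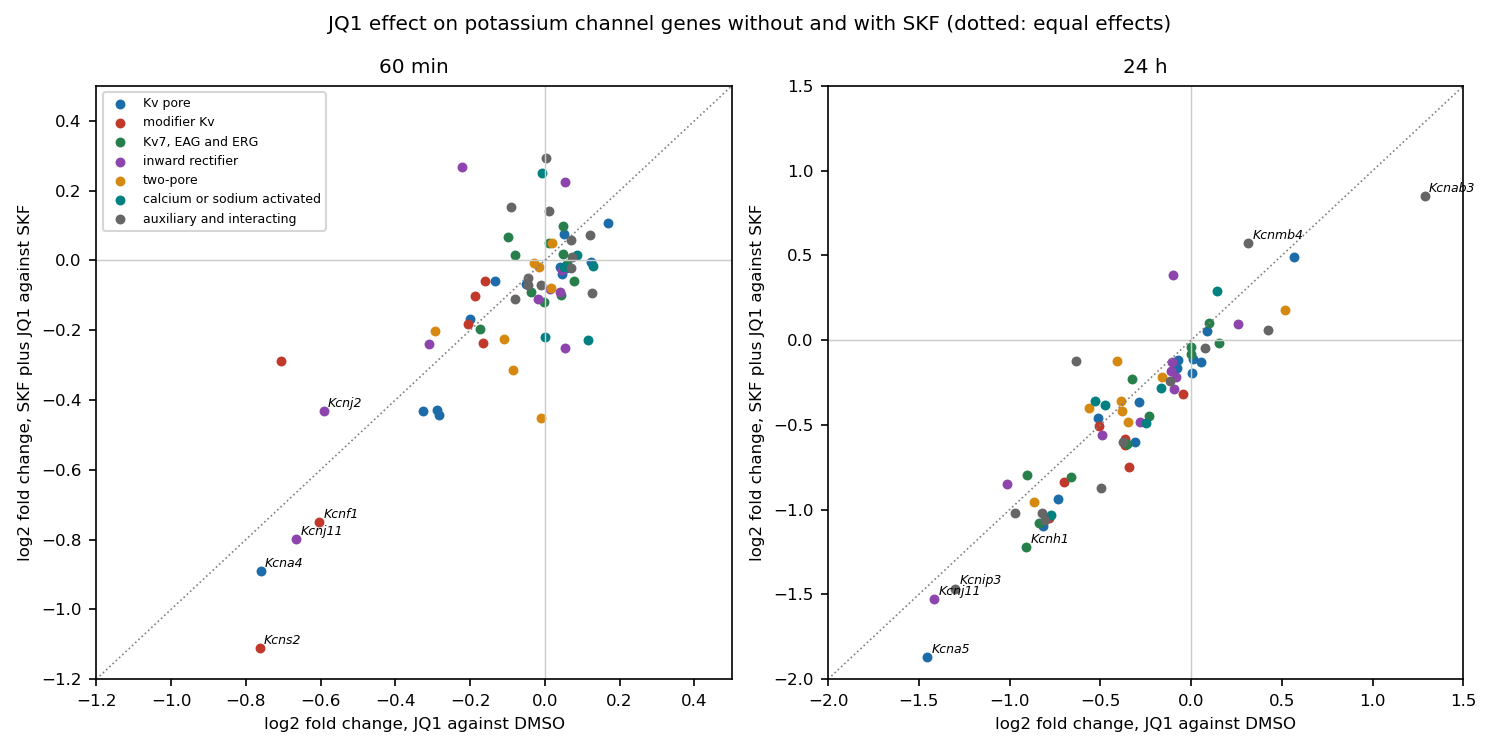
Log2 fold change with JQ1 without SKF (horizontal) against that with SKF present (vertical) for the 67 members at 60 min (left) and 24 h (right), coloured by role; the dotted line marks equal effects and symbols are given for some genes called in both. Kcna5, Kcnj11 and Kcnip3 are lowest and Kcnab3 highest at 24 h.

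Whether JQ1 altered the SKF effect was also tested at 24 h. The test called 0 members with limma, with 8 at an unadjusted p under 0.05 and 0.0429% of all genes called. SKF by itself for 24 h gave 1 rise and 1 fall among the members, with 1.49% of all genes called (0.636% higher and 0.85% lower). Kcnn1 went from 3.92 and 3.86 to 5.26 and 5.27 FPKM (0.39 ± 0.09, adjusted p = 0.028), and Kcnip1 from 19.4 in both to 17.5 and 16.0 (-0.20 ± 0.05, adjusted p = 0.041). Both groups stood apart, but neither call held when experiment 3 was fitted by itself (adjusted p = 0.17 and 0.25). The Kcnn1 call ended without any of the 4 vehicle and SKF libraries (0.38 to 0.40, adjusted p = 0.13 to 0.23), and the Kcnip1 call fell to -0.14 (adjusted p = 0.57) without SKF replicate 6 and ended in 16 other omissions at -0.20. Microglial markers fell with SKF at 24 h as well (5 of 7), and their part was not tested. Kcnf1, Kcns2, Kcnk1 and Kcnj2, which SKF moved at 60 min, were at 0.06, 0.03, -0.11 and 0.03 at 24 h.

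The JQ1 effects at 24 h and 60 min were then compared, each against the vehicle of its own experiment. The difference was called for 33 members, 26 more negative and 7 more positive at 24 h, with 36.3% of all genes called (19.3% more negative and 17.1% more positive). The same difference for SKF was called for 1 member, Kcnip1, and for 2.43% of all genes. Kcna4 is the clearest case of a fall at 60 min that was not seen at 24 h. It was at 12.4 and 11.6 FPKM with vehicle and 12.2 and 13.4 with JQ1 at 24 h (0.09, 95% confidence interval -0.08 to 0.25), and the difference from 60 min was 0.85 ± 0.12 (adjusted p = 2.0e-05). Kcnj2 was at 1.63 and 1.815 FPKM with vehicle and 1.47 and 1.65 with JQ1 at 24 h. Its vehicle mean was thus already low, at 1.72 FPKM, against 3.365 in experiment 1 and 4.42 in experiment 2. For Kcnj2 the difference was 0.48 (95% confidence interval 0.12 to 0.85, adjusted p = 0.038). That call ended without any of 6 libraries (0.42 to 0.52, adjusted p = 0.054 to 0.12). Kcnj11 went the other way, falling further by 0.75 (adjusted p = 9.5e-05). For Kcnf1 and Kcns3, called at both times, the differences were 0.24 (95% confidence interval -0.04 to 0.52) and 0.01 (-0.36 to 0.37). Time, experiment and any difference between the cultures of the 2 experiments cannot be told apart here.

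Over the 23 libraries, centred on the vehicle mean of each experiment, the members whose log2 level ran most like that of Kcns2 were Kcnf1 (Pearson r = 0.90), Kcna1 (0.81), Kcns3 (0.77), Kcnj11 (0.74) and Kcna2 (0.73). These are descriptions over libraries that share treatments and scaling.

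Genes outside the family whose products assemble with or regulate these channels were followed as a list of 19, of which 18 were in the tables and 14 were tested. With JQ1 1 fell at 60 min without SKF and 2 with it, and none rose, where 4.34% and 6.49% of all genes were called. At 24 h 8 fell and 3 rose without SKF, and 8 fell and 1 rose with it, where 56.3% and 56.5% of all genes were called. Lgi1, a secreted partner of Kv1 complexes, changed by -0.86 in both 24 h comparisons, and Dpp6, an auxiliary subunit of Kv4 channels, by -0.50 and -0.59. Lrrc55, an auxiliary subunit of BK channels, fell by 0.33 and 0.40 at 60 min and by 0.49 and 0.85 at 24 h. SKF called 0 of the 14 with limma at either time, with 0 at an unadjusted p under 0.05 at 60 min and 1, Cntnap1, at 24 h.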

How the data were processed

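RNA of 23 libraries was analysed, and the SKF with iBD2 replicate 2 was not analysed here. The authors extracted total RNA with a column kit and made rRNA-depleted stranded libraries, per the labels' protocols. Per the submitters' processing notes the build was Rnor_6.0 and the tools, given without versions, included STAR, StringTie, Trim Galore, FastQC and DESeq2. The deposited tables give FPKM per transcript as computed by the authors, for 41078 transcripts, and the coverage (mean reads per base) as computed by the authors, from which aligned bases were derived.

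Gene values are summed FPKM scaled by median-ratio factors, which spanned 0.947 to 1.07. Tests used log2(FPKM + 0.5), a scale on which changes of low genes are understated. Genes needed 0.5 FPKM in 2 libraries and a transcript of at least 200 nucleotides, which left 13999. Group means were estimated in limma 3.58.1 (R 4.3.3) over all 23 libraries, with trend and robust settings and 11 residual degrees of freedom, and 13 two-sided comparisons were made. A call is a Benjamini-Hochberg adjusted p under 0.05 over all genes tested. The steps were tested on simulated data.

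The members and gene lists were chosen with earlier results of these data known. Named in each comparison are up to 20 called members by absolute log2 fold change with at least 1 FPKM in the higher group. Named anywhere are those of the 10 most abundant members that are reported here, a fixed set of representatives of each role, up to 4 partner genes by smallest p, the 5 members most like Kcns2 and 5 treatment check genes. Kcns3, Kcnk13, Kcnab3 and other members outside this rule were named after their values were seen. Some members are not reported here, but counts over members include them. Other settings tried were unscaled FPKM, a pseudocount of 0.1 or 1, all genes unfiltered, the replicate number as a block, separate fits per experiment, voom on coverage-derived fragments, and omission of single libraries. Precision is limited by 2 libraries per group.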

Additional observations from a re-analysis of the deposited data

Results flagged for a closer look

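For 33 members the effect of JQ1 against vehicle differed between 24 h in experiment 3 and 60 min in experiment 1, by a limma test of the difference itself (adjusted p under 0.05). Values, given here for 31 of them, are the log2 fold change at 24 h minus that at 60 min. They sit beside the fall of microglial markers at 24 h, whose part was not tested, and time and experiment cannot be told apart. The auxiliary genes Kcnip3 (-1.25), Kcnip1 (-1.04), Kcnip2 (-0.89), Kcnmb2 (-0.76), Kcne5 (-0.64), Kcnip4 (-0.62) and Kcnab1 (-0.44) were lower at 24 h. Kcnab3 (1.38) and Kcnrg (0.51), of the same group, were higher. Among Kv pore and modifier genes Kcna5 (-1.13), Kcnc2 (-0.86), Kcng3 (-0.60), Kcnd3 (-0.57) and Kcna2 (-0.44) were lower, and Kcna4 (0.85) and Kcns2 (0.42) were higher. In the Kv7, EAG and ERG families Kcnh1 (-0.96), Kcnh3 (-0.92), Kcnh4 (-0.73) and Kcnh2 (-0.41) were lower. The inward rectifiers Kcnj16 (-1.07), Kcnj11 (-0.75) and Kcnj6 (-0.53) were lower and Kcnj2 (0.48) was higher. The two-pore genes Kcnk1 (-0.85), Kcnk10 (-0.40) and Kcnk2 (-0.36) were lower and Kcnk9 (0.63) was higher. The activated channels Kcnn1 (-0.77), Kcnt2 (-0.65) and Kcnn2 (-0.60) were lower. Of the 33 differences, 24 kept an adjusted p under 0.05 whichever library was left out. The 9 that did not were Kcna2, Kcnab1, Kcne5, Kcng3, Kcnip4, Kcnj2, Kcnk9, Kcnrg and Kcns2.

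The effect of SKF on Kcnip1 also differed between 24 h and 60 min, by -0.24 on the log2 scale. That call ended in 10 of the omissions of 1 library, with the smallest value at -0.18 (adjusted p = 0.30) without SKF replicate 6 of experiment 3.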

How the results depend on the processing

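No call reversed its direction under any alternative. Counts of called members, with 1 library left out in turn, ranged from 2 to 4 for SKF at 60 min (4 with all libraries), 5 to 8 for JQ1 at 60 min (7), 4 to 9 for JQ1 with SKF present at 60 min (7), 0 to 2 for SKF at 24 h (2), 35 to 44 for JQ1 at 24 h (41), 39 to 47 for JQ1 with SKF present at 24 h (46), 1 to 5 for JQ1 minus iBD2 (4), 27 to 34 for JQ1 at 24 h minus 60 min (33) and 0 to 1 for SKF at 24 h minus 60 min (1). Without the filter on low values the count was 2 for SKF at 60 min, 1 for iBD2 with SKF present, 1 for SKF at 24 h and 2 for JQ1 minus iBD2. With each experiment fitted alone it was 1 and 1 for SKF at 60 min and 0 for SKF at 24 h. With FPKM as deposited it was 1 for SKF at 24 h and 0 for SKF at 24 h minus 60 min, which voom raised to 3. The cause was not tested. With the replicate number as a block the counts were 4 for SKF at 60 min, 8 and 9 for JQ1 at 60 min without and with SKF, 0 for SKF at 24 h and 46 and 47 for JQ1 at 24 h. The numbers are not stated to mark shared cultures. The difference between the 2 libraries of a group was correlated over genes with that of another group in the same experiment. These correlations ran from -0.27 to 0.37, with 1 difference per group. The calls kept in all omissions were 5 of 7 for JQ1 at 60 min, 4 of 7 with SKF present, 29 of 41 and 33 of 46 at 24 h. With 2 libraries per group, an effect that did not pass the test may still be present, and values near 0.5 FPKM rest on few fragments.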
